A study of Homo sapiens with 4 samples.

Results

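WDR5 peaks that lay wholly within introns were described in the leukemia cell lines RS4;11 and THP-1, at the level of the single peaks, of the genes that hold them and of the H3K4me3 of those genes. A WDR5 peak was counted as intron-only when the deposited annotation marked it as lying in an intron of at least 1 transcript, and in no exon and no 20 kb upstream region of any transcript. No measured binding strength entered this rule. It selected 412 of the 703 RS4;11 peaks and 112 of the 225 THP-1 peaks, together 524 of 928. RS4;11 is a B-cell precursor acute lymphoblastic leukemia line and THP-1 is a monocytic acute myeloid leukemia line, and the study describes both as carrying MLL rearrangements. Both were grown in RPMI1640 medium with 10% serum, and the labels name no treatment. Each line gave 1 WDR5 and 1 H3K4me3 ChIP-seq sample, with no replicates, so the intervals and tests below are over peaks or genes and do not cover variation between cultures. The files give the position of each peak but neither its height nor the number of reads, so the depth is unknown and weak peaks cannot be told from strong ones. Positions are those of hg19, and genes are those of GENCODE release 44 on the same assembly. RNA was not measured, and H3K4me3 at the promoters of lineage genes was the one check of the cells. It did not separate the lines. Of 28 B lineage genes, 5 were marked in both lines, 4 in RS4;11 cells alone (among them CD79A and CD79B) and 5 in THP-1 cells alone (among them PAX5 and EBF1). Of 28 myeloid genes, 9 were marked in both lines (among them CD14 and LYZ), 5 in RS4;11 cells alone (among them SPI1) and 6 in THP-1 cells alone (among them ITGAM and CSF3R). The labelled type of leukemia of 1 sample of each line is that of the other line, so the main comparison is also given with the H3K4me3 of the other line. The WDR5 samples could not be checked in this way.

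WDR5 is a WD-repeat protein that holds together the MLL and SET1 complexes, the enzymes that methylate lysine 4 of histone H3. The trimethylated form, H3K4me3, is known as a mark of active promoters, where it covers the nucleosomes around the transcription start. Introns make up most of the length of long genes, and they hold enhancers and the starts of alternative transcripts as well as repeated DNA and old copies of mitochondrial sequence.

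The sequences below are the plus-strand bases from 50 before to 50 after the center of peaks to which the results return. Capitals mark CG dinucleotides. The SMAP2, GIMAP2 and DENND5A peaks are shown because they are covered by H3K4me3 over their whole width, the LOC26080 peak because it was found in both lines, and the EXD3 peak because it is the widest of the THP-1 intron-only peaks.
SMAP2, RS4;11, chr1:40851427-40851527: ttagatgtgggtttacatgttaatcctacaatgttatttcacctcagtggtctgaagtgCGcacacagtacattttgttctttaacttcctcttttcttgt
GIMAP2, RS4;11, chr7:150383425-150383525: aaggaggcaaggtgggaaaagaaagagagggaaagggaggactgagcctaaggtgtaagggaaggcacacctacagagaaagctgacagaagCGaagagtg
DENND5A, THP-1, chr11:9286222-9286322: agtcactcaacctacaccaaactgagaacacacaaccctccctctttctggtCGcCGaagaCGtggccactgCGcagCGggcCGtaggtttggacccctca
LOC26080, RS4;11, unplaced contig GL000212.1, bases 40695 to 40795: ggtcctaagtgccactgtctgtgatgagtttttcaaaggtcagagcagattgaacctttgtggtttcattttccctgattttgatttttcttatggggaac
EXD3, THP-1, chr9:140222618-140222718: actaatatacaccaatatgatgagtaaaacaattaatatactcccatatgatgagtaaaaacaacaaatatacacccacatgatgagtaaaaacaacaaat

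The DENND5A window holds 6 CG dinucleotides and is 58.4% G and C. The SMAP2 window, also under H3K4me3, has 1 CG and is 36.6% G and C. The EXD3 window is 26.7% G and C with no CG, and a unit around atgatgagtaaaa recurs in it.

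The PCBD2 peak, in an intron of a gene for a dehydratase of the tetrahydrobiopterin cycle, is set beside the mitochondrial genome because its whole width aligns to it. The peak was found in both lines, at chr5:134259751-134260423 (RS4;11) and chr5:134259761-134260401 (THP-1). The identity to the mitochondrial sequence was 95.2% over the RS4;11 peak and 95% over the THP-1 peak. In the next lines the same stretch around the center is given, and capitals mark the 7 bases at which the intron and the minus strand of the mitochondrial genome differ.
PCBD2 intron, chr5:134260037-134260137: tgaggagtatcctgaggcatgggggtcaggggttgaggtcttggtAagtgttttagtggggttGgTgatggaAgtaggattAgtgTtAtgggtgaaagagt
Mitochondrial genome, bases 14349 to 14449: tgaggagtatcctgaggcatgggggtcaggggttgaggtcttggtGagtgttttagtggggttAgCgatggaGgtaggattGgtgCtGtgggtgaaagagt

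Intron-only peaks made up the larger part of the WDR5 peaks in RS4;11 cells and about the same part as all others together in THP-1 cells. The RS4;11 share was 58.6% (95% Wilson interval 54.9 to 62.2) and the THP-1 share 49.8% (43.3 to 56.3). These shares are what the rule selects, from 1 sample per line, and are given as a description. By the deposited annotation, 68 of the other RS4;11 peaks touched an exon and 32 lay in an intron of a transcript and upstream of another. The other 191 lay outside every transcript. The same kinds held 29, 8 and 76 THP-1 peaks. Intron-only peaks were narrow, with a median width of 386.5 bp for RS4;11 (194 to 683) and 420.5 bp for THP-1 (239 to 811). The widest RS4;11 peak lay in CNBD1, and the widest THP-1 peak in EXD3. The annotation used here is newer than that of the study. By it, 388 of the 412 RS4;11 and 105 of the 112 THP-1 intron-only peaks lay inside a transcript and touched no exon. The same held for 49 of the 191 RS4;11 and 20 of the 76 THP-1 peaks called outside transcripts. An intron-only peak could still lie downstream of another transcript, and 36 RS4;11 and 9 THP-1 peaks carried that mark.

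Few intron-only peaks overlapped H3K4me3. In RS4;11 cells 18 of 412 (4.37%, 2.78 to 6.8) shared at least 1 bp with an H3K4me3 peak of the same line, against 8.25% of all RS4;11 WDR5 peaks. In THP-1 cells 6 of 112 (5.36%, 2.48 to 11.2) did so, against 12% of all THP-1 WDR5 peaks. The overlap was less frequent than among the other RS4;11 WDR5 peaks, of which 40 of 291 (13.7%) overlapped (odds ratio 0.287, Fisher's exact test, p = 1.1e-05, adjusted p = 8.8e-05 over the 8 tests made). THP-1 cells gave the same direction, with 21 of 113 other peaks overlapping (18.6%, with an odds ratio of 0.248, p = 0.0034 and an adjusted p = 0.0069 by Fisher's exact test). The difference between intron-only and other peaks was not shown to differ between the lines (test of the interaction, p = 0.85), nor were the intron-only shares of the lines (odds ratio 0.807, Fisher's exact test, p = 0.62).

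Against peaks that touched an exon, 14 of 68 (20.6%) in RS4;11 cells, the intron-only share was lower (odds ratio 0.176, Fisher's exact test, adjusted p = 8.8e-05). In THP-1 cells 5 of 29 exon peaks (17.2%) overlapped H3K4me3, and the difference missed the threshold after adjustment (odds ratio 0.272, Fisher's exact test, p = 0.049, adjusted p = 0.056). Peaks outside transcripts overlapped H3K4me3 in 24 of 191 cases in RS4;11 (12.6%) and 14 of 76 in THP-1 cells (18.4%), both above the intron-only shares (odds ratios 0.318 and 0.251, Fisher's exact test, adjusted p = 0.0012 and 0.011).

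**Figure D1:**
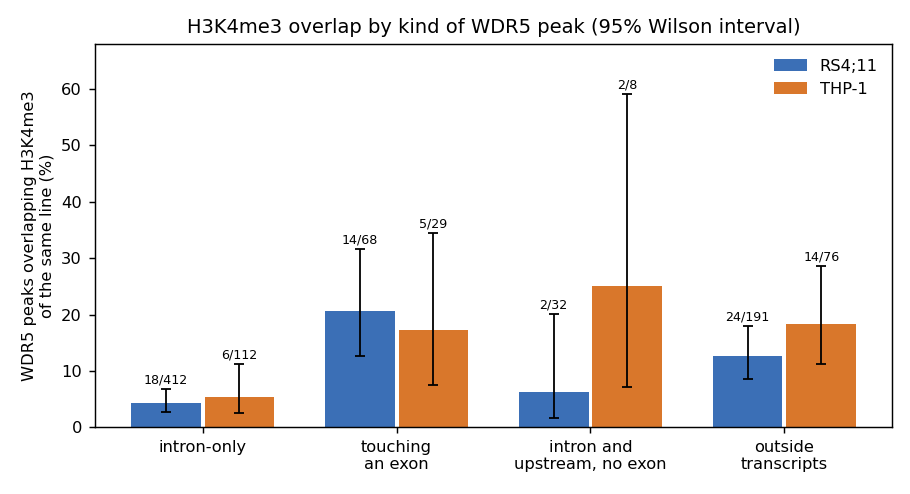
Share of WDR5 peaks under H3K4me3 of their own line, in percent, for each kind of WDR5 peak in RS4;11 (blue) and THP-1 cells (orange). Bars are shares, lines are 95% Wilson intervals and the numbers above them are overlapping peaks of all peaks. The intron-only bars, 4.37% and 5.36%, are the lowest in each line, and the interval of the 8 THP-1 peaks in an intron and upstream is wide.

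The rule removes peaks on the exons and upstream regions of transcripts, and the kinds differed in how near they were to transcription starts. The center lay within 1 kb of the start of any annotated transcript for 29 RS4;11 (7.04%) and 13 THP-1 (11.6%) intron-only peaks, against 39.7% and 41.4% of the peaks that touched an exon. Without all WDR5 peaks so near to a start, a comparison chosen after the data were seen, 15 of 383 intron-only and 14 of 229 other RS4;11 peaks overlapped H3K4me3 (3.92% and 6.11%, odds ratio 0.626, Fisher's exact test, p = 0.24). In THP-1 cells these were 2 of 99 and 7 of 89 (2.02% and 7.87%, odds ratio 0.242, Fisher's exact test, p = 0.087). Both calls were lost in these smaller sets, while the direction was kept. The odds ratio moved from 0.287 to 0.626 in RS4;11 cells. In THP-1 cells it hardly changed, from 0.248 to 0.242.

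H3K4me3 was far from the typical intron-only peak. The median distance to the nearest H3K4me3 peak of the same line was 34508 bp for RS4;11 and 22612 bp for THP-1 intron-only peaks. Exon peaks gave 13540 and 19218 bp, and peaks outside transcripts 13336 and 11870 bp. Overlapping peaks entered these medians with no distance, and they were more frequent among exon peaks and peaks outside transcripts. More than 100 kb separated 86 RS4;11 intron-only peaks (20.9%) and 23 THP-1 intron-only peaks (20.5%) from any H3K4me3 peak, against 5.88% and 10.3% of the exon peaks. Between 1 and 1000 bp away were 11 (2.68%) and 6 (5.36%) intron-only peaks.

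**Figure D2:**
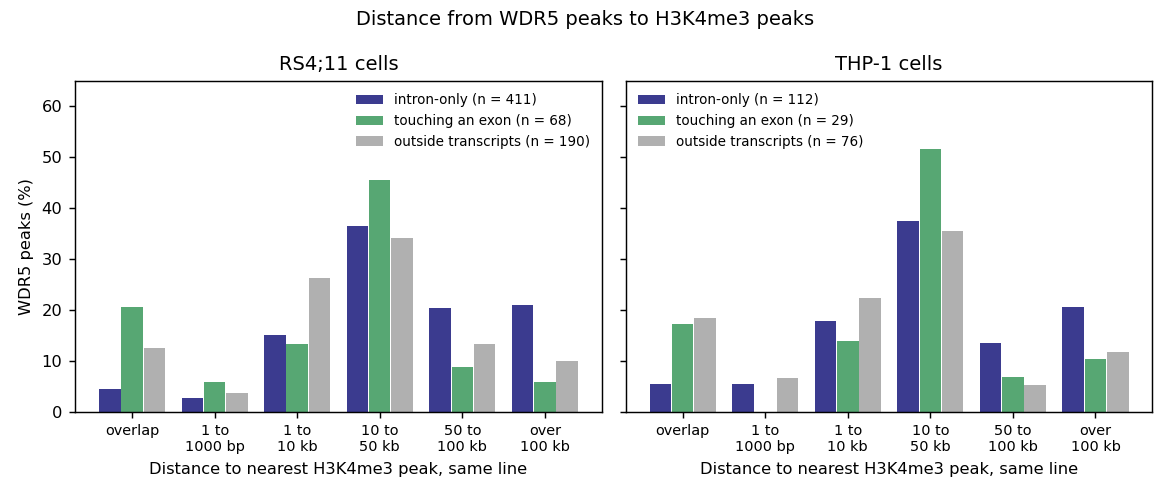
Distance from each WDR5 peak to the nearest H3K4me3 peak of the same line, in 6 classes (horizontal axis), as a percentage of the peaks of a kind (vertical axis), for RS4;11 (left) and THP-1 cells (right). One RS4;11 intron-only peak and one peak outside transcripts lie on sequences without H3K4me3 and are not counted. In both lines the class from 10 to 50 kb holds the most intron-only peaks, 36.5% and 37.5%.

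The 18 intron-only peaks under H3K4me3 in RS4;11 cells lay in 18 genes. Complete cover was seen at SMAP2, a regulator of Arf GTPases in vesicle transport, where all 579 bp of the peak were marked. The peak of GIMAP2, a GTPase of the immunity-associated family, was marked over 520 bp, its whole width, 690 bp from the start of a gene of 7.95 kb. Both peaks were equally covered by THP-1 H3K4me3. The peak of SH3RF3, a RING finger protein, was covered over 501 bp in RS4;11 cells, at 203 kb from the start of the gene, while the nearest THP-1 H3K4me3 peak was 117894 bp away.

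CBFA2T3, a corepressor of transcription in blood cells, had 463 bp of H3K4me3 on its peak in RS4;11 cells and none in THP-1 cells, where the nearest H3K4me3 peak was 3157 bp away. In the same class were MUC4, a mucin (300 bp in RS4;11 cells, 53610 bp to the nearest THP-1 peak), and EPN1, an adaptor of endocytosis (292 bp, 28645 bp). RIN3, an exchange factor for Rab GTPases, was covered over 383 bp in both lines. RAB28, a small GTPase, was the one host among the 6 targets that the study names, LYN, BCL9, RAB28, CD93, MED24 and RBM22. Its 295-bp peak at 594 bp from the start was wholly covered in both lines. At the other end of the range, GNA12 and ACTL6A shared 4 bp and 1 bp with RS4;11 H3K4me3, so these overlaps were contacts of peak edges. The remaining members of the 18 were SENP5 (478 bp), ZNF792 (453 bp), NPAS3 (260 bp), SLC39A11 (258 bp), SYNE3 (256 bp), ZNF423 (229 bp), CHMP4B (152 bp) and ST3GAL2 (140 bp).

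In THP-1 cells the overlapping peaks lay in 6 genes. RNF122, a RING finger protein, was covered over 528 bp and DENND5A, an exchange factor for Rab GTPases, over 361 bp, in both cases over the whole peak and by H3K4me3 of both lines. FMNL2, a formin that acts on actin filaments, had 359 bp under THP-1 and 391 bp under RS4;11 H3K4me3. SENP5 had 366 bp, and BTRC, the substrate receptor of a ubiquitin ligase, 334 bp. GLI2, a transcription factor of Hedgehog signaling, had 106 bp of THP-1 H3K4me3, and RS4;11 H3K4me3 was 25331 bp away.

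Intron-only peaks were also set against H3K4me3 of the other line. THP-1 H3K4me3 overlapped 9 RS4;11 intron-only peaks, of which 6 were also under RS4;11 H3K4me3, against 7.54% of all RS4;11 WDR5 peaks. RS4;11 H3K4me3 overlapped 7 THP-1 intron-only peaks, 5 of them also under THP-1 H3K4me3, against 9.78% of all THP-1 WDR5 peaks. The 3 RS4;11 peaks under THP-1 H3K4me3 alone lay in DPF3, HM13 and ARHGAP25. The 2 THP-1 peaks under RS4;11 H3K4me3 alone lay in PDZRN4 and CDK17. With the H3K4me3 of the other line in the comparison above, a setting chosen after the data were seen, 2.18% of RS4;11 intron-only and 15.1% of other RS4;11 WDR5 peaks overlapped (odds ratio 0.125, p = 2.3e-10 by Fisher's exact test). For THP-1 peaks the shares were 6.25% and 13.3%, and the call was lost (odds ratio 0.436, p = 0.11 by Fisher's exact test).

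The peaks under H3K4me3 had a higher median GC content than the others, with ranges that overlapped. The median GC content was 52% (RS4;11, n = 18) and 51.7% (THP-1, n = 6), against 39.2% (n = 394) and 36.7% (n = 106) for intron-only peaks without H3K4me3. The median number of CG dinucleotides per kb was 14.6 and 37.2, against 6.36 and 5.51. The peaks under H3K4me3 ran from 35.2% (NPAS3) to 67.6% (CBFA2T3) in RS4;11 cells and from 34.9% (BTRC) to 63.7% (GLI2) in THP-1 cells, and those without it from 24.8% to 62.8% and from 3.94% to 67.8%. Of the overlapping peaks, 3 of 18 and 4 of 6 lay within 1 kb of the start of an annotated transcript. No test was made on these small sets.

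The RS4;11 intron-only peaks named 393 host genes and the THP-1 peaks 112. In the reference 388 and 110 of these were found, of which 380 and 110 are protein-coding. This is 1.88% and 0.546% of the 20163 protein-coding genes. Host genes were long, with a median of 204.4 kb for the RS4;11 hosts (quartiles 96.5 and 429) and 213.6 kb for the THP-1 hosts (81.7 and 452), against 27.22 kb over all protein-coding genes. Among genes of 300 kb or more, 17.3% held an RS4;11 and 5.32% a THP-1 intron-only peak, against 0.269% and 0.0748% of genes under 50 kb. Per length of intron the classes were closer together. Over the main transcript of each gene, RS4;11 peaks numbered 3.57 per 10 Mb of intron, 2.11 in genes under 50 kb, 3.65 and 3.68 in the middle classes, and 4.06 in genes of 300 kb or more. In THP-1 cells the density was 0.981 over all introns, 0.586 in the shortest and 1.12 in the longest genes.

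Peaks were spread along their genes. The median distance from the 5′ end was 87.5 kb in RS4;11 and 91.9 kb in THP-1 cells, at 47.9% and 51.5% of the length of the gene. Each peak was placed, where possible, in an intron of the main transcript of every host it had, so a peak could count for several hosts. The first intron, which often holds regulatory sequence, contained 104 of the 401 RS4;11 placements (25.9%) and 19 of 106 THP-1 placements (17.9%). First introns make up 21.6% and 20.6% of the intron length of these hosts. Only 14 RS4;11 and 5 THP-1 peaks lay within 5 kb of the 5′ end of the host, and 5 and 2 of them overlapped H3K4me3.

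Without regard to gene length, the share of host genes with promoter H3K4me3 of the same line was close to that of protein-coding genes in general. The promoter was the stretch from 2000 bp before to 500 bp after the 5′ end of a gene. In RS4;11 cells it was 188 of 380 host genes (49.5%, 44.5 to 54.5), against 49.1% of all protein-coding genes. In THP-1 cells it was 61 of 110 (55.5%, 46.1 to 64.4), against 55.3%. With the other line this was not so. RS4;11 hosts carried the mark in THP-1 cells in 237 cases (62.4%, 57.4 to 67.1), against 55.3% of all protein-coding genes. THP-1 hosts carried it in RS4;11 cells in 41 cases (37.3%, 28.8 to 46.6), against 49.1%. Both backgrounds lay outside these intervals, and no test was made. The background of all genes was itself higher in THP-1 than in RS4;11 cells. It also varied with gene length. In RS4;11 cells 30.7% of all genes of 300 kb or more were marked, against 48.9% of those under 50 kb. In THP-1 cells these shares were 51.1% and 52.9%, with 62.9% at 50 to 100 kb and 59.2% at 100 to 300 kb. The hosts were therefore also read within classes of length.

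Among the longest genes, those of 300 kb or more, 51 of 143 RS4;11 hosts (35.7%, 28.3 to 43.8) were marked in RS4;11 cells, against 30.7% of all genes of that length. THP-1 hosts of that length gave 23 of 44 (52.3%, 37.9 to 66.2) in THP-1 cells, against 51.1%. In both lines the value of all genes lay within the interval of the hosts in every class of length but one. The exception was RS4;11 hosts under 50 kb, of which 25 of 36 (69.4%, 53.1 to 82) were marked against 48.9%. In every class the share of RS4;11 hosts was above that of all genes. It was 60.9% against 55.1% at 50 to 100 kb and 53.3% against 48.8% at 100 to 300 kb. By THP-1 H3K4me3, RS4;11 hosts were also above all genes in every class. THP-1 hosts were above at 50 to 100 kb (65% against 62.9%) and in the longest class. They were below under 50 kb (50% against 52.9%) and at 100 to 300 kb (55.6% against 59.2%). By RS4;11 H3K4me3, THP-1 hosts were above all genes under 50 kb (60% against 48.9%) and below in the longer classes. With rising length these were 50% against 55.1%, 41.7% against 48.8% and 22.7% against 30.7%. No test was planned on these classes and none was made.

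**Figure D3:**
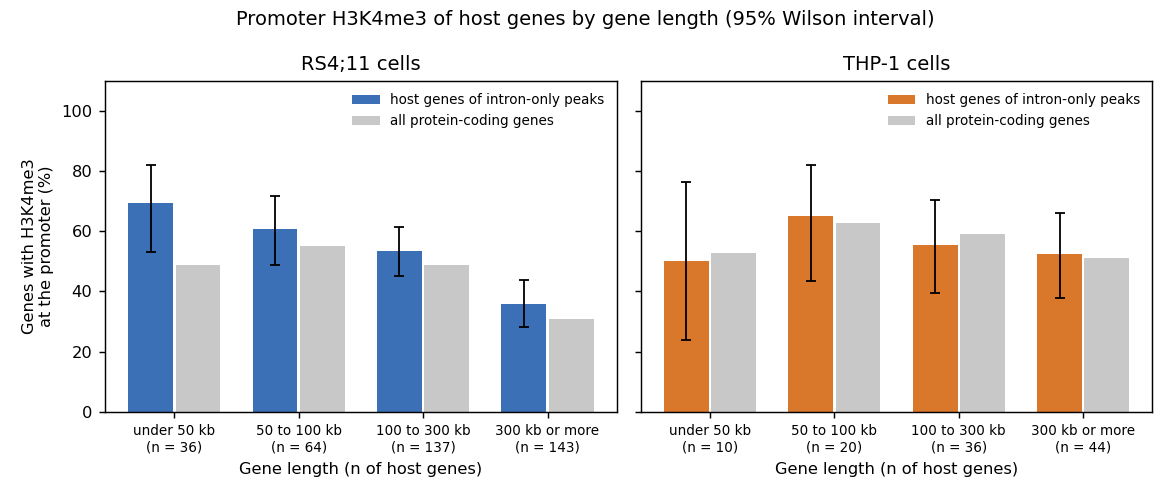
Share of genes with an H3K4me3 peak at the promoter, in percent, by gene length in kb, for the hosts of intron-only peaks (colored, with 95% Wilson intervals) and all protein-coding genes (grey), with RS4;11 hosts and H3K4me3 on the left and THP-1 on the right. The marked share of RS4;11 hosts goes from 69.4% in the shortest to 35.7% in the longest class, and THP-1 hosts lie between 50% and 65%.

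Taking both lines at once, 168 RS4;11 hosts (44.2%) had promoter H3K4me3 in both lines, 20 (5.26%) in RS4;11 cells alone, 69 (18.2%) in THP-1 cells alone and 123 (32.4%) in neither. THP-1 hosts gave 35 (31.8%), 6 (5.45%), 26 (23.6%) and 43 (39.1%). Over all protein-coding genes these shares were 43.4%, 5.71%, 11.9% and 39%. A host without a marked promoter often had H3K4me3 elsewhere in its body. At least 1 H3K4me3 peak of the same line lay in the gene body for 327 RS4;11 hosts (86.1%) and 102 THP-1 hosts (92.7%). Over all protein-coding genes these shares were 64.5% and 70%. They rise with gene length, from 57% and 61.9% of genes under 50 kb to 86.3% and 91.5% of genes of 300 kb or more. Within the longest class 88.1% of RS4;11 hosts (81.8 to 92.4) and 95.5% of THP-1 hosts (84.9 to 98.7) had such a peak. In the shortest class it was 31 of 36 RS4;11 hosts (86.1%, 71.3 to 93.9) and 9 of 10 THP-1 hosts (90%, 59.6 to 98.2).

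A second intron-only peak was found in 22 RS4;11 host genes, and none held more than 2. No THP-1 host held more than 1. These 22 genes had a median length of 553.5 kb, from 63.2 kb for RPN2 to 1210 kb for CSMD3, and 16 were 300 kb or longer. The peaks of a pair were 3.68 to 556 kb apart, with a median of 147 kb, and 3 pairs lay in the same intron. Promoter H3K4me3 was present in both lines at 11 of these genes, in RS4;11 cells alone at 1, in THP-1 cells alone at 4 and in neither at 6.

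The closest pair lay in EIF2B3, a subunit of the exchange factor of translation initiation, with both peaks in the third intron and 3.68 kb between them. RPN2, a subunit of the oligosaccharyltransferase of the endoplasmic reticulum, followed with 6.79 kb, between introns 11 and 15. ARHGAP25, a GTPase-activating protein of leukocytes, had both peaks in its first intron, 14.4 kb apart. Its upstream peak lay wholly under THP-1 H3K4me3 (394 bp), and its downstream peak was 706 bp from RS4;11 H3K4me3. PARN, a poly(A) ribonuclease, had its peaks 19.9 kb apart. SLC35F1 was the third gene with both peaks in 1 intron, 58.1 kb apart.

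In RAB28 the peak at the start was under H3K4me3, and the other, 53 kb downstream in intron 4, was 52199 bp from the mark. ZNF423, a zinc-finger transcription factor, also had 1 peak with and 1 without H3K4me3. The marked peak lay in the last intron at 95.7% of the gene, and the other was 11269 bp from the mark. NPAS3 showed the same split. The remaining pairs were in WDR70, STPG2, CPED1, CFAP299, GRID1, SNTB1, ADK, EXOC4, NAV2, ARHGAP6, CSMD3, LPP, SORCS3 and CDH12, 77.1 to 556 kb apart.

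**Figure D4:**
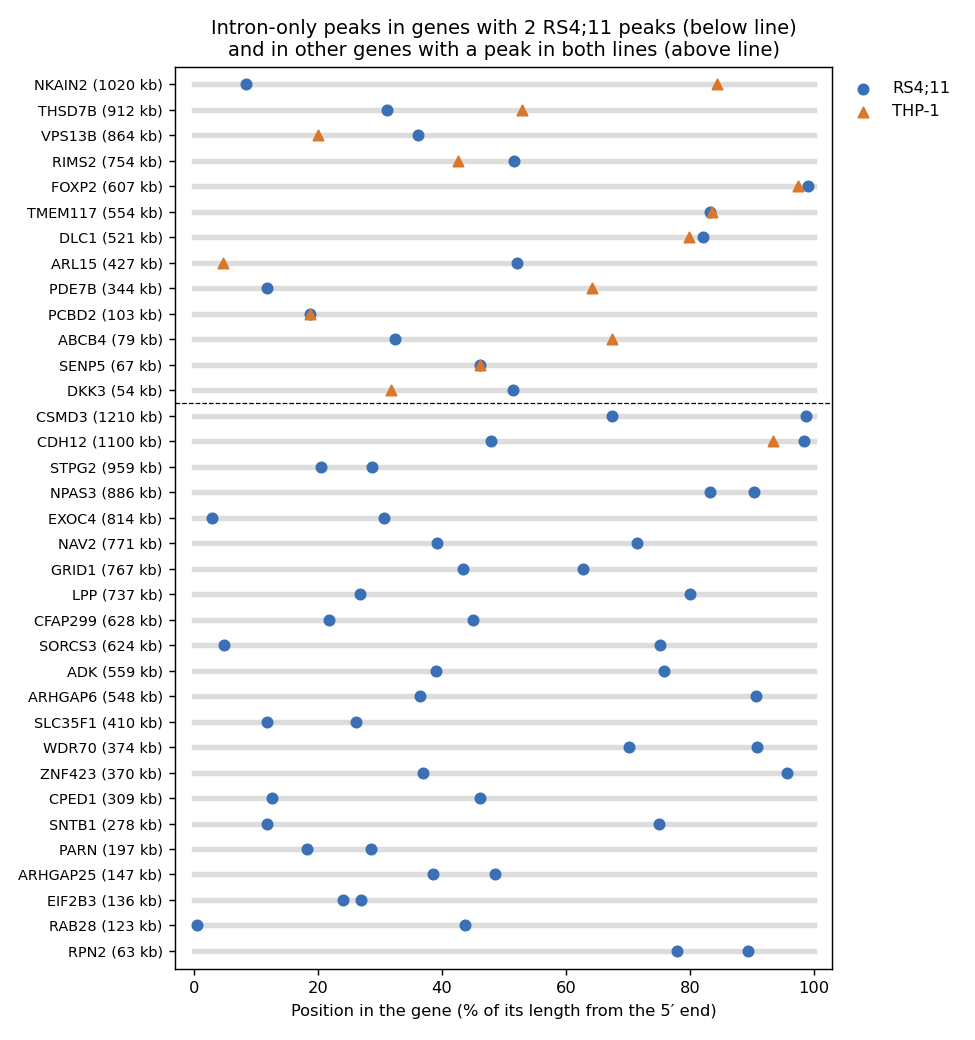
Position of intron-only peaks, as a percentage of gene length from the 5′ end, in the 22 genes with 2 RS4;11 peaks (below the broken line) and in the other annotated genes with a peak in both lines (above it), with gene lengths in kb. Circles are RS4;11 and triangles THP-1 peaks. The symbols coincide or nearly so in PCBD2, SENP5 and TMEM117 and lie far apart in most of the others.

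Both lines had an intron-only peak in 15 host genes, which is 3.82% of the RS4;11 and 13.4% of the THP-1 hosts. Of all protein-coding genes, 0.546% held a THP-1 and 1.88% an RS4;11 intron-only peak. For genes of 300 kb or more these shares were 5.32% and 17.3%. The peaks of the lines overlapped in 3 of the 15 genes, PCBD2, SENP5 and LOC26080. Of the peaks outside transcripts, 10 of 191 RS4;11 and 10 of 76 THP-1 peaks overlapped a WDR5 peak of the other line. In the other 12 host genes the intron-only peaks lay apart. TMEM117, with 1.17 kb between the RS4;11 and the THP-1 peak, was the nearest of them. It was followed by FOXP2, a forkhead transcription factor, with 8.97 kb, DKK3, a secreted relative of Wnt antagonists, with 10.2 kb, DLC1 with 11.8 kb, and ABCB4, a phospholipid transporter, with 27.3 kb. In CDH12, RIMS2, VPS13B, PDE7B, THSD7B, ARL15 and NKAIN2 they were 55.5 to 777 kb apart. Of the 14 genes of this group in the reference, 10 were 300 kb or longer, and 6 had promoter H3K4me3 in both lines, 1 in RS4;11 cells alone, 1 in THP-1 cells alone and 6 in neither.

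All 3 of the intron-only peaks that overlapped between the lines held sequence that occurs elsewhere in the reference. This was measured as the share of 31-base words in a peak that occur more than once in the assembly. In RS4;11 cells it was 33.3% for PCBD2, 47.2% for SENP5 and 66.4% for LOC26080, and in THP-1 cells 34.2%, 49.8% and 64.9%. At least 25% of the words were repeated in 29 (7.04%) of all RS4;11 and 14 (12.5%) of all THP-1 intron-only peaks. SENP5, a protease of the SUMO pathway, was the one shared peak with H3K4me3, over 478 bp in RS4;11 and 366 bp in THP-1 cells. At PCBD2 the nearest RS4;11 mark was 17572 bp and the nearest THP-1 mark 17642 bp away. LOC26080 lies on an unplaced contig with no annotated gene. The authors kept only uniquely aligned reads, and the part of repeated sequence in these shared peaks was not tested.

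Over all intron-only peaks, repeated sequence was less common than beside them. The mean share of repeated words was 4.6% in RS4;11 and 7.46% in THP-1 intron-only peaks, against 11.9% and 17.1% in windows of the same width 5 kb to either side. The same direction was seen in the other kinds. Exon peaks gave 1.74% and 9.75%, against 17.5% and 19.6% in their windows. Peaks outside transcripts gave 10.4% and 19%, against 18.8% and 27.3%. The peaks rest on uniquely aligned reads, and the part of this in the difference was not tested. No word was repeated in 294 RS4;11 (71.4%) and 66 THP-1 peaks (58.9%). The median GC content was 39.5% in RS4;11 and 37% in THP-1 intron-only peaks, against 40.1% and 39.8% in the flanking windows. It was below that of the flanks in 53.6% and 61.6% of the peaks.

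Lists of genes with a known role in this setting were searched for hosts, against 1.88% and 0.546% of all protein-coding genes that host an RS4;11 or a THP-1 intron-only peak. Of 17 genes of the WDR5 and H3K4 methyltransferase complexes, KMT2C, a methyltransferase of histone H3, was an RS4;11 host, with a peak at chr7:151967572-151968007 in its seventh intron, and none was a THP-1 host. Of 27 targets of MLL fusions and stem cell factors in the reference, CDK6, a kinase of the cell cycle, and MEIS1, a homeobox cofactor of HOX proteins, were RS4;11 hosts, and none was a THP-1 host. The MEIS1 peak at chr2:66669536-66669856 lay 9.11 kb from the start, and the CDK6 peak at chr7:92418627-92418972 lay 47.1 kb from it. Neither overlapped H3K4me3 in either line.

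Of 28 B lineage genes, AFF3, a relative of a common MLL fusion partner, was an RS4;11 host and EBF1, a transcription factor of early B cells, a THP-1 host. None of 28 myeloid genes held an intron-only peak in either line. These lists have median lengths of 38.6 to 157 kb, or 15.6 kb for the myeloid one. The list with the most hosts was that of 44 long adhesion and neuronal genes, with a median length of 1260 kb, of which 13 (29.5%) were RS4;11 and 7 (15.9%) THP-1 hosts. CDH12, a cadherin, was among both. Genes of 300 kb or more of any kind gave 17.3% and 5.32% hosts. That class starts far below the median length of the list, so these shares are not matched for length. The number of peaks per length of intron was not computed for the list.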

How the data were processed

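ChIP-seq of WDR5 and H3K4me3 was done in 4 samples, 1 per line and antibody. Per the paper, the authors sonicated chromatin for WDR5 and used micrococcal nuclease for H3K4me3, although the labels give sonication for both. Alignment to hg19 was by Eland, with up to 2 mismatches and unique hits only, and MACS called the peaks. The submitters' processing notes name CASAVA 1.7 and 1.8.2. Neither the MACS version nor any input control is given in the sources used here. The deposited values are yes or no flags that place a peak in an exon, in an intron or within 20 kb of either end of a transcript. In 1 sample of each line the labelled leukemia type is that of the other line, and the type in the paper was used.

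From these files, lines were reduced to distinct peaks. Peaks sharing at least 1 bp overlapped. Host genes were those named with a yes for intron, matched to GENCODE release 44 on GRCh37, where the main transcript is Ensembl's canonical one. Wilson intervals (95%) are given for shares, and Fisher's exact test was used between them, adjusted by Benjamini and Hochberg over 8 tests. One of these compared the intron-only share between the lines, on the flags of the rule itself, and is not reported. Repeats were counted in the reference as 31-base words, and mitochondrial copies with blastn 2.17.0 (e-value 1e-10). Scripts were tested on simulated intervals. Python 3.11.15, numpy 2.4.6, pandas 2.3.3, scipy 1.17.1 and pysam 0.24.0 were used.

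The sequence of 1 peak is not reported here. Genes named were hosts with 2 peaks, hosts in both lines, those with the largest H3K4me3 overlaps, list members, the study's targets and the widest peaks. The other genes under H3K4me3 were named after their values were seen. The peaks and gene lists were chosen with earlier results of these data known. Alternatives changed the annotation, downstream flag, width, overlap, promoter and host definition.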

Additional observations from a re-analysis of the deposited data

How the results depend on the processing

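Of 48 alternatives, 37 kept the direction and the side of the threshold, or stayed within the Wilson interval of a share or within 1.5 times a count. With the reference annotation in place of the deposited flags, which also drops the condition on upstream regions, the share of intron-only peaks rose to 66.4% (RS4;11) and 58.2% (THP-1), and without peaks flagged as downstream it was 53.5% in RS4;11 cells. H3K4me3 within 1 kb raised the overlapping share from 4.37% to 7.04% in RS4;11 and from 5.36% to 10.7% in THP-1 cells, the latter within its interval, and the THP-1 odds ratio from 0.248 to 0.402. With the start of every annotated transcript, 61.3% of RS4;11 and 75.5% of THP-1 hosts had promoter H3K4me3, against 56.6% and 64% of all protein-coding genes. With hosts named on any line of the H3K4me3 file, these were 88% and 94.6%, since that file covers gene bodies and 20 kb around them. Without peaks within 1 kb of any transcript start, a setting chosen after seeing the data, the odds ratios of H3K4me3 overlap for intron-only against other peaks were 0.626 (Fisher's exact test, p = 0.24) in RS4;11 and 0.242 (Fisher's exact test, p = 0.087) in THP-1 cells, both past the threshold before. With the H3K4me3 of the other line, also added after seeing the data, the THP-1 odds ratio was 0.436 (Fisher's exact test, p = 0.11). The RS4;11 odds ratio was then 0.125 (Fisher's exact test, p = 2.3e-10). The cause of these changes was not tested. Over the other settings, p for these ratios by Fisher's exact test was 2.9e-07 to 0.00039 in RS4;11 and 0.0033 to 0.025 in THP-1 cells. Of those settings, the removal of repeated sequence was also chosen after seeing the data.

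No paired analysis was possible because each combination of line and antibody has 1 sample, and leaving out a replicate was not possible. A stricter peak threshold was not run, since the files give no peak strength. Wider peaks stood in for it.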

Other observations

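The density of intron-only peaks differed between chromosomes. On chromosome 8 it was 5.7 per 10 Mb of intron in RS4;11 cells (29 peaks) and 2.16 in THP-1 cells (11 peaks), in each line the highest value among the chromosomes and above 3.57 and 0.981 over all introns. The lowest RS4;11 value was 0.947 on chromosome 21, which rests on 1 peak. No test was made.

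Short motifs of blood and growth factors were searched on both strands up to 150 bp to either side of the center of each peak, and the same was done in 3802009 intron windows of that length. The GATA motif GATAAG was found in 57 of 412 RS4;11 (13.8%) and 20 of 112 THP-1 intron-only peaks (17.9%), and in 10.2% of the windows. It was found in 10.3% and 3.45% of the exon peaks and in 9.95% and 7.89% of the peaks outside transcripts. The E-box CACGTG was found in 3.64% and 1.79% of the intron-only peaks (2.8% of windows), the ETS motif TTCCGG in 1.94% and 3.57% (1.76%) and the AP-1 motif TGACTCA in 4.13% and 2.68% (4.54%). These are matches of letters and were not tested.

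Copies of the satellite pentamer ATTCC were counted in all WDR5 peaks, on the strand with more. They numbered 10 or more in 0 of 412 RS4;11 and 1 of 112 THP-1 intron-only peaks. The 1 peak lay on chromosome 18 with 16 copies. Just under this cut was the SENP5 peak shared by the lines, with 9 copies in each line. Among the other kinds, 2 of 191 RS4;11 and 3 of 76 THP-1 peaks outside transcripts reached 10 copies. So did 1 of 29 THP-1 exon peaks. The other 10 RS4;11 peaks that overlapped a THP-1 WDR5 peak lay outside transcripts, and 2 of these aligned in full to the mitochondrial genome, as the PCBD2 peak did.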
